A study of Mus musculus with 32 samples.

Results

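The 9 genes described here act in insulin signalling to the glucose transporter GLUT4, some carrying the signal and some restraining it. All were taken by symbol from the 57186 genes of the deposited table. They are Insr, Irs1, Irs2, Pik3r1, Akt2, Tbc1d4, Slc2a4, Grb14 and Ptpn1. Each was matched through its Ensembl gene, and all 9 were among the 14428 genes with enough counts to be tested. RNA came from 3T3-L1 cells, 1 mouse preadipocyte line, differentiated into adipocytes with insulin, dexamethasone and IBMX. There were 8 groups of 4 libraries, and every treatment lasted 24 h. The groups without TNF-alpha (TNF) received DMSO vehicle, SCO, CAP7 or rosiglitazone (ROSI), and the other 4 groups received the same agents together with TNF. SCO is not spelled out in the labels, although the title of the series names an Artemisia scoparia extract. The labels do not say what CAP7 is or which doses were used. The labels call the libraries of a group biological replicates without naming separate cultures, so p-values measure the spread between these libraries.

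In a fat cell, insulin binds its receptor (Insr), which phosphorylates the adaptors IRS1 and IRS2. These recruit PI3-kinase through its regulatory subunit p85α (Pik3r1), and the kinase AKT2 is then activated. AKT2 phosphorylates AS160 (Tbc1d4), a brake on vesicle traffic, and GLUT4 (Slc2a4) reaches the cell surface. GRB14 blocks the receptor's kinase and the phosphatase PTP1B (Ptpn1) removes phosphates from receptor and adaptors. TNF is known to make adipocytes insulin resistant, and ROSI activates PPARγ, a nuclear receptor of fat cell differentiation. Only mRNA was measured, so phosphorylation, protein and glucose uptake were not observed.

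Library totals ran from 11.3 M to 37.7 M counts (M, mega), with a median of 20.9 M. Group means ran from 15 M to 24.2 M, and the DMSO and SCO groups without TNF, at 15.6 M and 15 M, had the lowest. Levels below are in CPM, the counts of a gene per M counts of its library, after TMM scaling for library composition. Changes are log2 fold changes with their standard error from edgeR's quasi-likelihood fit over all 32 libraries. A gene was called when its Benjamini-Hochberg adjusted p over all tested genes was under 0.05. With library size alone in place of TMM, the median of all genes moved by up to -0.16 when a compound was compared with DMSO. The share of higher genes among all calls then fell from 53.4% to 35.3% for SCO, from 50.3% to 28.8% for CAP7 and from 49.2% to 27.8% for ROSI without TNF. With TNF it fell from 62% to 44.2%, from 55.8% to 36.9% and from 54.6% to 31.7%. All 10 adipocyte markers listed were detected and tested, among them Adipoq, Plin1 and Fabp4. Their summed level moved with the groups too, with means of 58600, 79800, 72700 and 88900 CPM for DMSO, SCO, CAP7 and ROSI, and 19900, 44800, 47100 and 65200 CPM with TNF. The 6 preadipocyte markers listed, 5 of them tested, summed to means of 957, 680, 622 and 681 CPM, and 593, 499, 529 and 534 CPM with TNF. The DMSO libraries without TNF, at 868 to 1020 CPM, lay above those of every other group. Of 8 macrophage and leukocyte markers 3 were tested, and the 8 had sums of 10.6 to 14.1 CPM in DMSO with TNF and 1.1 to 8.19 elsewhere, and Adgre1 had 0 counts in every library. The 7 endothelial and mural markers, 2 of them tested, summed to at most 6.53 CPM, with Cdh5 at no more than 1 count. The part of depth and of these markers in the results was not tested, and in such bulk RNA fewer mature cells and less RNA per cell cannot be told apart.

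Slc2a4, the transporter itself, was the member with the widest range across the groups. Without TNF its levels in the 4 DMSO libraries were 156, 133, 172 and 161 CPM. With TNF they were 30.9, 26.9, 25.2 and 31.7 CPM. The groups did not overlap, and the mean fell from 156 ± 16.4 to 28.7 ± 3.11 CPM (SD, n = 4 each), which is 5.43-fold lower (log2 -2.44 ± 0.104, adjusted p = 8.16e-22). Adding SCO to TNF gave 59.6, 66.6, 59.9 and 65.2 CPM. CAP7 with TNF gave 102, 76.8, 97.8 and 77.5 CPM, and ROSI with TNF gave 75.4, 66.6, 92.1 and 101. Every one of these 12 libraries lay above every library with TNF alone and below every untreated one. The rises over TNF alone were 2.19-fold for SCO, 3.09-fold for CAP7 and 2.93-fold for ROSI, with adjusted p of 2.47e-11, 5.31e-16 and 1.28e-15. Without TNF, the CAP7 libraries held 199, 212, 210 and 206 CPM and none overlapped the DMSO libraries (log2 0.41 ± 0.096, adjusted p = 0.000937). The SCO and ROSI means, 169 and 167 CPM, were not called against DMSO, with 95% intervals of the log2 change from -0.07 to 0.32 and from -0.09 to 0.29. In order of level, the groups ran CAP7, SCO, ROSI, DMSO, then CAP7, ROSI, SCO and DMSO with TNF. Neighbours in that order were not called apart among the first 4 groups, nor CAP7 from ROSI with TNF (log2 difference 0.08 ± 0.0972). CAP7 and SCO without TNF differed by -0.29 (SCO minus CAP7, adjusted p = 0.0667), which passed in DESeq2 (0.0401), limma-voom (0.0469), with the replicate block (0.0472), with only the groups compared (0.00407) and without the low-count filter (0.00733). The steps from ROSI to SCO and from SCO to DMSO with TNF were called.

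**Figure D1:**
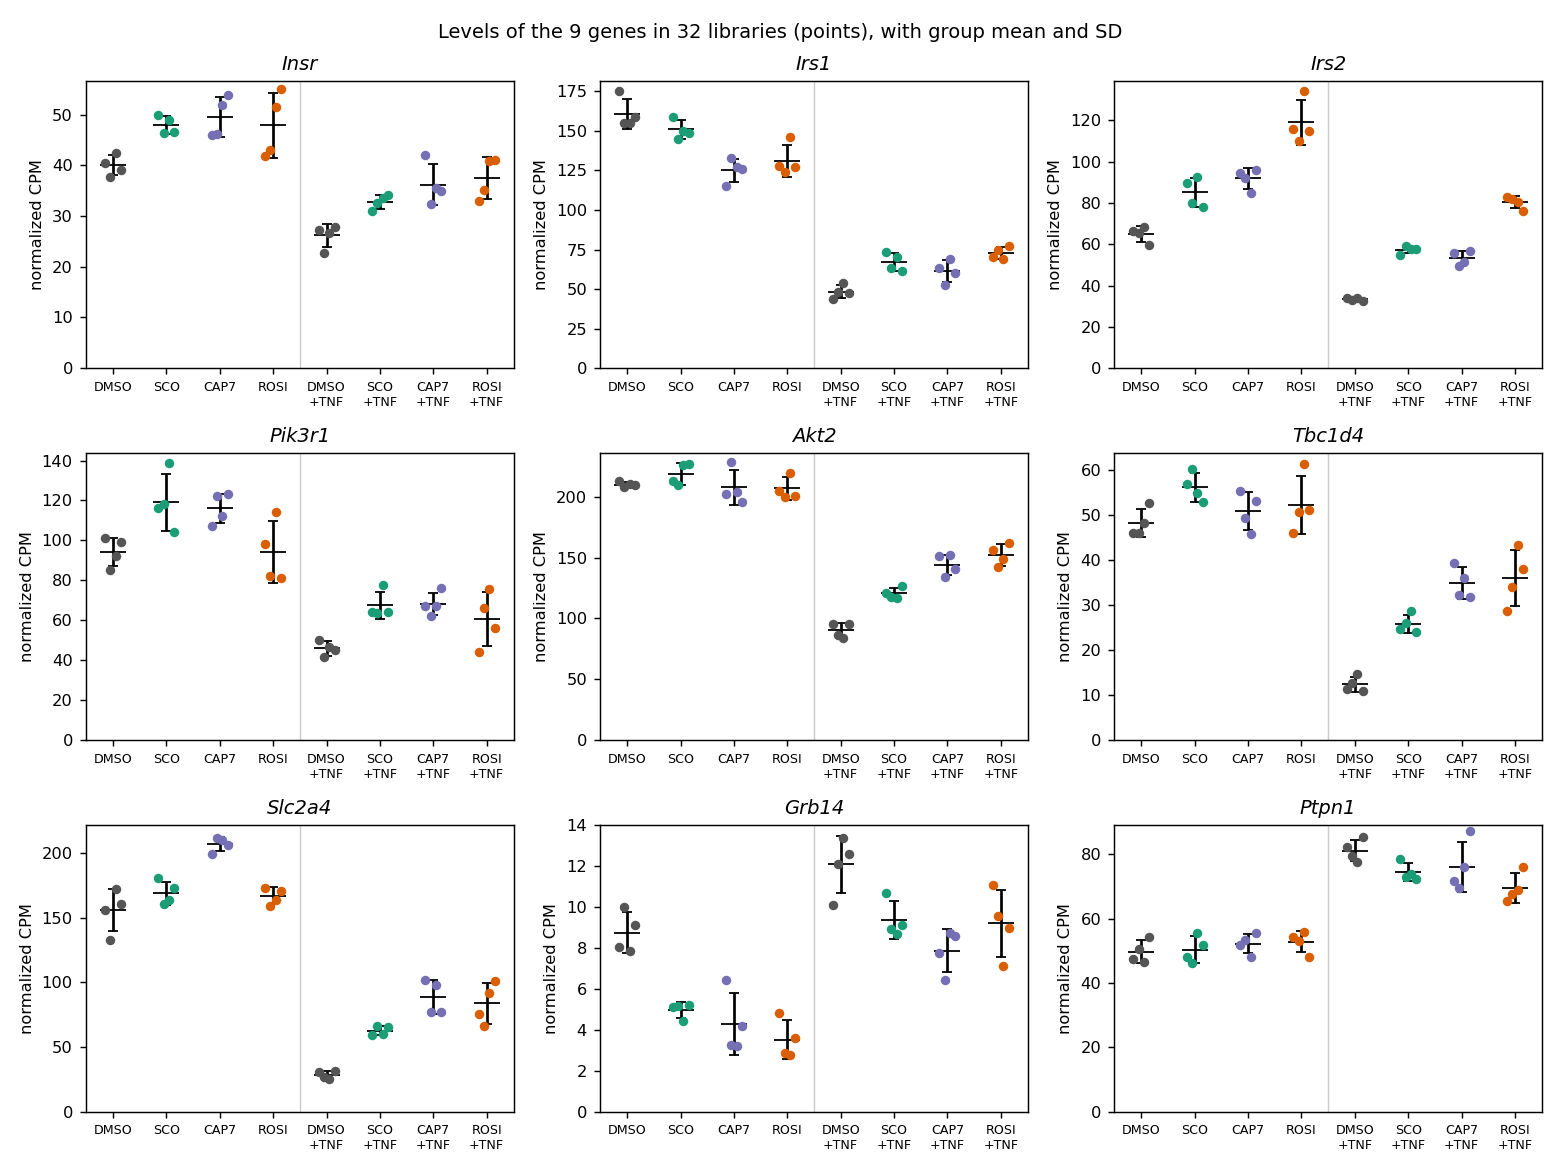
Level of each of the 9 genes in normalized CPM (vertical axis, from 0) in the 8 groups (horizontal axis); points are libraries, bars the mean and SD of 4. Slc2a4 falls from 156 to 28.7 CPM with TNF, while Ptpn1 rises from 49.7 to 81.1 CPM.

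Insr, the receptor, fell less than the transporter. DMSO libraries had 37.7 to 42.5 CPM without TNF and 22.8 to 27.9 with it, and the mean fell 1.53-fold (log2 -0.61 ± 0.0904, adjusted p = 3.43e-07). Each compound raised it under TNF: to 32.8 ± 1.33 CPM with SCO, 36.2 ± 4.13 with CAP7 and 37.5 ± 4.08 with ROSI (SD, n = 4 each). The log2 changes were 0.32, 0.47 and 0.52, and all 12 libraries lay above the 4 with TNF alone. Without TNF the compounds gave log2 changes of 0.26, 0.31 and 0.26, also called, with adjusted p of 0.0359, 0.00694 and 0.0196. These 3 small rises ended as calls with library size alone, where they were 0.19, 0.20 and 0.12 with adjusted p of 0.124, 0.082 and 0.296. The rise with SCO was also lost on leaving out any of DMSO libraries 1, 2 and 4 or SCO libraries 1 and 3 (adjusted p 0.069 to 0.107), and without the low-count filter (adjusted p = 0.0587). The rise with ROSI was lost without DMSO library 2 or ROSI libraries 3 or 4, with adjusted p of 0.0623, 0.0691 and 0.116.

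The adaptors Irs1 and Irs2 fell together with TNF but went different ways with the compounds. Irs1 had 175, 155, 155 and 159 CPM in DMSO and 43.5, 48.1, 54 and 47.8 with TNF, a 3.32-fold fall (log2 -1.73 ± 0.0773, adjusted p = 3.85e-21). Irs2 had 66.2, 65.6, 68.5 and 59.6 CPM in DMSO and 34, 33, 34 and 32.7 with TNF, a 1.95-fold fall (log2 -0.96 ± 0.0688, adjusted p = 5.54e-15). Neither gene's groups overlapped. Without TNF, Irs2 rose and Irs1 did not: with ROSI, Irs2 had 116, 110, 134 and 115 CPM, a rise of 0.87 ± 0.0671 (adjusted p = 2.05e-13), while Irs1 fell by 0.29 to 128, 124, 146 and 127 CPM (adjusted p = 0.00181). CAP7 gave the same pair of directions, with Irs2 at 94.7, 91.9, 84.8 and 96 CPM (log2 0.50) and Irs1 at 115, 133, 127 and 126 CPM (log2 -0.36). SCO raised Irs2 to 89.6, 80.2, 92.6 and 78.2 CPM (log2 0.39), and Irs1, at 145 to 159 CPM, was not called (log2 -0.09, 95% interval -0.25 to 0.06). Under TNF both adaptors rose with each compound. Irs2 reached 57.4 ± 1.86, 53.4 ± 3.26 and 80.3 ± 2.85 CPM with SCO, CAP7 and ROSI, and Irs1 reached 67.1 ± 5.69, 61.4 ± 6.72 and 72.9 ± 3.82 CPM (SD, n = 4 each). Irs2 rose by 0.78, 0.68 and 1.26 on the log2 scale and Irs1 by 0.47, 0.34 and 0.59. With CAP7 and TNF, 1 Irs1 library at 52.7 CPM lay within the range of TNF alone, and the other 11 libraries of Irs1 lay above it.

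The bases just upstream of both adaptor genes are shown because these genes are alike in role and moved apart without TNF. They are the 250 bases before the RefSeq start of each gene in build GRCm38.p6, 5′ to 3′ along the gene, at chr1:82291440-82291689 for Irs1 and chr8:11008930-11009179 for Irs2, both on the minus strand. Of the 9 genes, 7 had such an entry, with 11 start sites between them. Slc2a4 and Insr had none, so their upstream bases were not searched. Capitals mark CACGTG (an E-box), TGTTTTG (the core of a FOXO insulin response element) and GGGCGG (a GC box).
Irs1: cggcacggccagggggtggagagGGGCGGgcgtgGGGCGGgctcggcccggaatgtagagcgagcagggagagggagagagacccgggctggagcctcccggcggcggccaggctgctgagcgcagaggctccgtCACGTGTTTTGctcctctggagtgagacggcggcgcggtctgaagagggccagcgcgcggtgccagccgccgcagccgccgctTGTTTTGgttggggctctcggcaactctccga
Irs2: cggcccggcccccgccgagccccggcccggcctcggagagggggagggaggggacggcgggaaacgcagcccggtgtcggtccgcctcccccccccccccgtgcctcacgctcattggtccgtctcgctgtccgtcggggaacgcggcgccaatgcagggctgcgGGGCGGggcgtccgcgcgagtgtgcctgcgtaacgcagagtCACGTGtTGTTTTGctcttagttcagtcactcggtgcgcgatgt
Both windows hold the E-box beside TGTTTTG. In Irs1 the E-box lies 115 to 110 bases before the start and shares 2 letters with the TGTTTTG at 111 to 105, and a second TGTTTTG lies at 32 to 26. In Irs2 they lie at 44 to 39 and 37 to 31. The longest stretches common to both windows are GTCACGTGTT and TGTTTTGCTC, 10 bases each. CACGTG occurs in 6.02% and TGTTTTG in 5.56% of the 32851 windows in the table, searched on both strands, and 97 windows (0.295%) hold both. GGGCGG occurs in 32.7%. Also searched on both strands were TTGCNNAA (C/EBP, 9.56% of windows), GGG and TTTCC with any 2 bases between them (NF-κB, 1.41%) and AGGTCA repeated after any 1 base (a PPAR element, 0.0335%). The NF-κB and PPAR letters were not found in any window of the 7 genes. The motifs were chosen with the sequences in view, and a match is a description of letters, not of a bound site.

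Because counts of both adaptors come from the same library, their ratio does not depend on scaling. It is compared only across groups, and which of the adaptor mRNAs is more abundant was not tested. The Irs1 to Irs2 count ratio lay between 2.26 and 2.66 in DMSO, 1.62 and 1.91 in SCO, 1.22 and 1.49 in CAP7, and 1.09 and 1.13 in ROSI. These 4 ranges did not overlap. With TNF the ratios were lower, with geometric means of 1.44 in DMSO, 1.17 in SCO, 1.15 in CAP7 and 0.908 in ROSI, and the ranges of SCO and CAP7, 1.06 to 1.34 and 1.06 to 1.33, overlapped each other and that of DMSO with TNF, 1.28 to 1.59. CAP7 with TNF also overlapped CAP7 without it, and ROSI with TNF, at 0.849 to 1.02, overlapped no other group. The ratio of Insr to its inhibitor Grb14 was higher with the compounds and, like the first ratio, lower with TNF. Its geometric mean was 4.58 in DMSO and 9.64, 12 and 13.9 with SCO, CAP7 and ROSI, and every library with a compound, from 7.14 up, lay above the DMSO maximum of 5.41. With TNF it was 2.17 in DMSO and 3.51, 4.61 and 4.11 with the compounds.

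**Figure D2:**
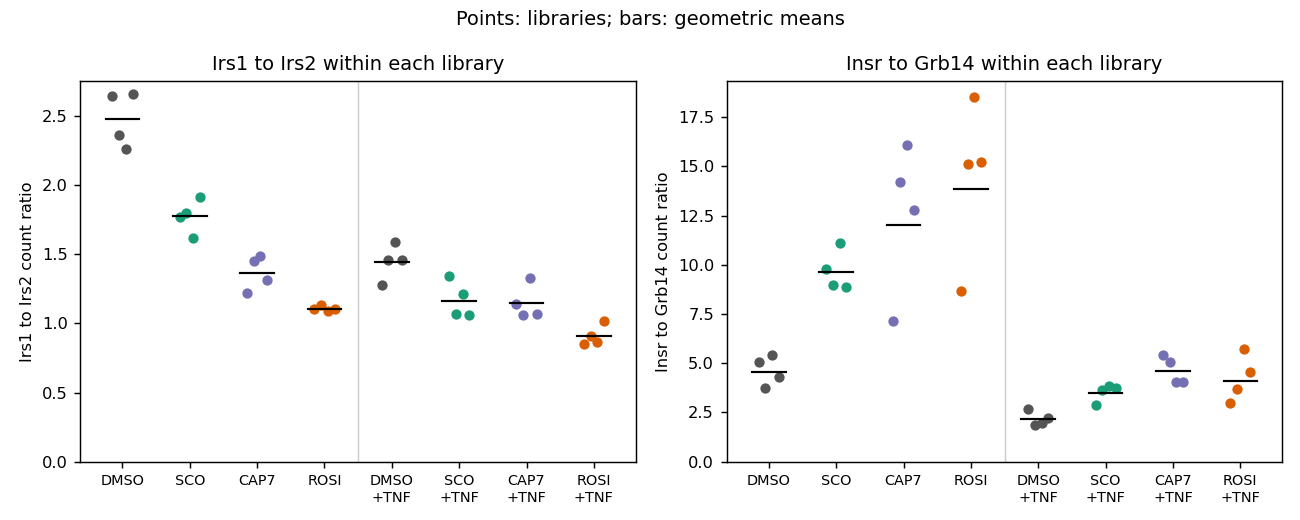
Count ratio within each library (vertical axes, from 0) of Irs1 to Irs2, left, and of Insr to Grb14, right, in the 8 groups; points are libraries and bars geometric means. The Irs1 to Irs2 ratio goes from 2.47 in DMSO to 1.11 in ROSI, while Insr to Grb14 goes from 4.58 to 13.9.

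In the kinase arm, Akt2 and Pik3r1 both fell with TNF. Akt2 had 213, 208, 211 and 210 CPM in DMSO, and 95.4, 86, 83.8 and 95.2 with TNF, a 2.33-fold fall (log2 -1.22 ± 0.061, adjusted p = 1.07e-19). It did not pass the test with any compound without TNF, where the log2 changes were 0.06, -0.02 and -0.03 with 95% intervals inside -0.15 to 0.18. With library size alone the change with ROSI was -0.17 and was called (adjusted p = 0.018). Under TNF Akt2 rose to 121 ± 4.38 CPM with SCO, 144 ± 8.53 with CAP7 and 152 ± 8.84 with ROSI (SD, n = 4 each), and no library overlapped TNF alone. Pik3r1 went from 85.1 to 101 CPM in DMSO to 41.5 to 50.2 with TNF, a 2.05-fold fall (log2 -1.04 ± 0.114, adjusted p = 4.73e-10). Under TNF it rose by 0.56, 0.57 and 0.40 on the log2 scale with SCO, CAP7 and ROSI. ROSI with TNF was uneven, at 44.1, 66.1, 75.4 and 56 CPM, and its lowest library lay within the range of TNF alone. That rise was lost without the third ROSI library (0.28, adjusted p = 0.0607) and with library size alone (0.25, adjusted p = 0.0744). Without TNF, Pik3r1 rose with SCO and CAP7 (log2 0.34 and 0.30, adjusted p 0.0289 and 0.0379) and stood at 94.1 CPM with ROSI against 94.3 in DMSO (log2 interval -0.23 to 0.22). The SCO call was lost on leaving out any of 5 libraries (DMSO 2 or 3, or SCO 1, 2 or 3) and the CAP7 call on leaving out any of 7 (each DMSO library, or CAP7 2, 3 or 4). Library size alone also ended them, at 0.27 and 0.19 (adjusted p 0.0856 and 0.202).

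Tbc1d4, which holds GLUT4 vesicles back until AKT2 acts on it, also fell with TNF and rose with each compound under TNF. DMSO libraries had 46.1, 46, 48.2 and 52.8 CPM, and TNF libraries 11.3, 12.6, 14.6 and 10.9, a 3.89-fold fall (log2 -1.96 ± 0.108, adjusted p = 2.72e-18). With SCO and TNF it had 24.7, 26.1, 28.6 and 24.1 CPM, with CAP7 and TNF 39.4, 32.3, 36 and 31.8, and with ROSI and TNF 28.7, 34, 43.4 and 38.1. None of these overlapped either TNF alone or untreated DMSO, and the rises over TNF alone were 2.09-fold, 2.81-fold and 2.92-fold. Without TNF no compound changed it past the threshold (log2 0.22, 0.08 and 0.12), although the 4 SCO libraries, at 52.9 to 60.4 CPM, all lay above the DMSO ones (adjusted p = 0.127). Fitting only the groups compared, that rise was called (adjusted p = 0.0254). Its window, at chr14:101609192-101609441 on the minus strand (GRCm38.p6, RefSeq), is shown because the gene had the second-largest fall of the members with TNF. It has the C/EBP letters upstream, which the adaptors lack. Ptpn1, which rose with TNF, has them too, as TTGGGCAA 183 to 176 bases before its start, read on the other strand. Capitals mark TTGCTCAA, which matches TTGCNNAA 166 to 159 bases before the start, and GGGCGG at 23 to 18.
Tbc1d4: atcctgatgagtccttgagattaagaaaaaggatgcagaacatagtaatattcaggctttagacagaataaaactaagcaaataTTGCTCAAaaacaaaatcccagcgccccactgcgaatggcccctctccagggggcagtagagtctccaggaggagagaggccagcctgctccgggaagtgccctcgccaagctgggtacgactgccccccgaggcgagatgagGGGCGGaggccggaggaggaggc

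Both inhibitors rose with TNF, and without TNF each compound lowered Grb14. Grb14 had the lowest counts of the members, 46 to 387 in a library, so its errors are the widest. DMSO libraries had 8.03, 10, 7.85 and 9.15 CPM. SCO gave 5.11, 5.15, 4.42 and 5.23 CPM, CAP7 6.44, 3.27, 3.23 and 4.2, and ROSI 4.84, 2.85, 2.79 and 3.61. All 12 lay below every DMSO library, and the falls were 1.75-fold, 2.03-fold and 2.44-fold (log2 -0.81 ± 0.184, -1.02 ± 0.181 and -1.29 ± 0.186, adjusted p 0.00126, 2.55e-05 and 4.68e-07). With TNF alone it had 10.1, 12.1, 13.4 and 12.6 CPM, 1.38-fold above DMSO (log2 0.47 ± 0.169, adjusted p = 0.0192), and that call was lost without DMSO library 1 or 3 or TNF library 3 (0.42, 0.42 and 0.40, adjusted p 0.0614, 0.0588 and 0.0648). Under TNF the fall with CAP7, to 6.42 to 8.73 CPM, was called (log2 -0.61, adjusted p = 0.00374). The values with SCO and ROSI, log2 -0.37 and -0.40, did not pass (adjusted p 0.118 and 0.0552). The ROSI difference passed in 9 of its 16 alternatives, among them DESeq2 (adjusted p = 0.042), and over all 16 its log2 value ran from -0.56 to -0.29. The SCO difference passed in limma-voom (adjusted p = 0.0398) and with only the groups compared (adjusted p = 0.0308).

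The Grb14 window, at chr2:65022767-65023016 on the minus strand (GRCm38.p6, RefSeq), is shown because this was the member that every compound lowered without TNF. Capitals mark 5 GC boxes read on the other strand as CCGCCC, between 121 and 16 bases before the start.
Grb14: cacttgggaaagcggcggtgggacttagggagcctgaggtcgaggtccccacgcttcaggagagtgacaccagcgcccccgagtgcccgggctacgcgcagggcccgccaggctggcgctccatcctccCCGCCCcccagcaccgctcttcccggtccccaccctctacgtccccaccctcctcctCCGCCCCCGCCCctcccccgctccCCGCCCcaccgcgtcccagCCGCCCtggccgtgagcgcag
Ptpn1, the phosphatase, had 47.5, 50.6, 46.4 and 54.3 CPM in DMSO and 82.3, 79.3, 77.6 and 85.2 with TNF, a 1.63-fold rise without overlap (log2 0.71 ± 0.0734, adjusted p = 1.14e-10). Without TNF the compounds gave 50.3, 52.2 and 52.8 CPM on average and none was called (log2 0.02, 0.07 and 0.09, intervals inside -0.13 to 0.24). Under TNF, ROSI lowered it to 65.4, 67.7, 68.9 and 76.1 CPM, all below TNF alone (log2 -0.22 ± 0.0718, adjusted p = 0.0136). That fall was lost without the first ROSI library (-0.19, adjusted p = 0.0527). SCO and CAP7 gave -0.12 and -0.09, not called, and with library size alone these were -0.19 and -0.20 and were called (adjusted p 0.0416 and 0.0256).

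Counted over the members, TNF alone lowered 7 of 9 and raised 2 (Grb14 and Ptpn1), where 54.2% of all tested genes were called, 27.5% lower and 26.7% higher. None of the 9 overlapped between groups, as for 50.6% of all genes. The median log2 change of the members was -1.04, beside -0.01 over all genes. The same 7 fell and the same 2 rose with TNF in the presence of SCO, CAP7 and ROSI, where 48.4%, 45.8% and 47.4% of all genes were called. Of all genes, 23.3%, 22.4% and 22.5% were lower and 25%, 23.4% and 24.9% higher there. Without TNF, SCO raised 3 of 9 and lowered 1, with 19.3% of all genes called. CAP7 raised 4 and lowered 2, with 30.3% called, and ROSI raised 2 and lowered 2, with 37.4% called. Of those backgrounds, 10.3%, 15.2% and 18.4% were higher and 8.99%, 15% and 19% lower, and no test of the members as a set was made. Under TNF, SCO raised 7 of 9 and lowered none, with 21.3% of all genes called, 13.2% higher and 8.09% lower. CAP7 raised 7 and lowered 1 (Grb14), with 32.2% called, 18% higher and 14.2% lower, and ROSI raised 7 and lowered 1 (Ptpn1), with 35.9% called, 19.6% higher and 16.3% lower. Member medians under TNF were 0.47, 0.57 and 0.59, beside 0.01, 0.00 and -0.00 over all genes. The 7 genes that rose with each compound were those that fell with TNF. These comparisons share the libraries with TNF alone, so a chance value there enters all of them.

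**Figure D3:**
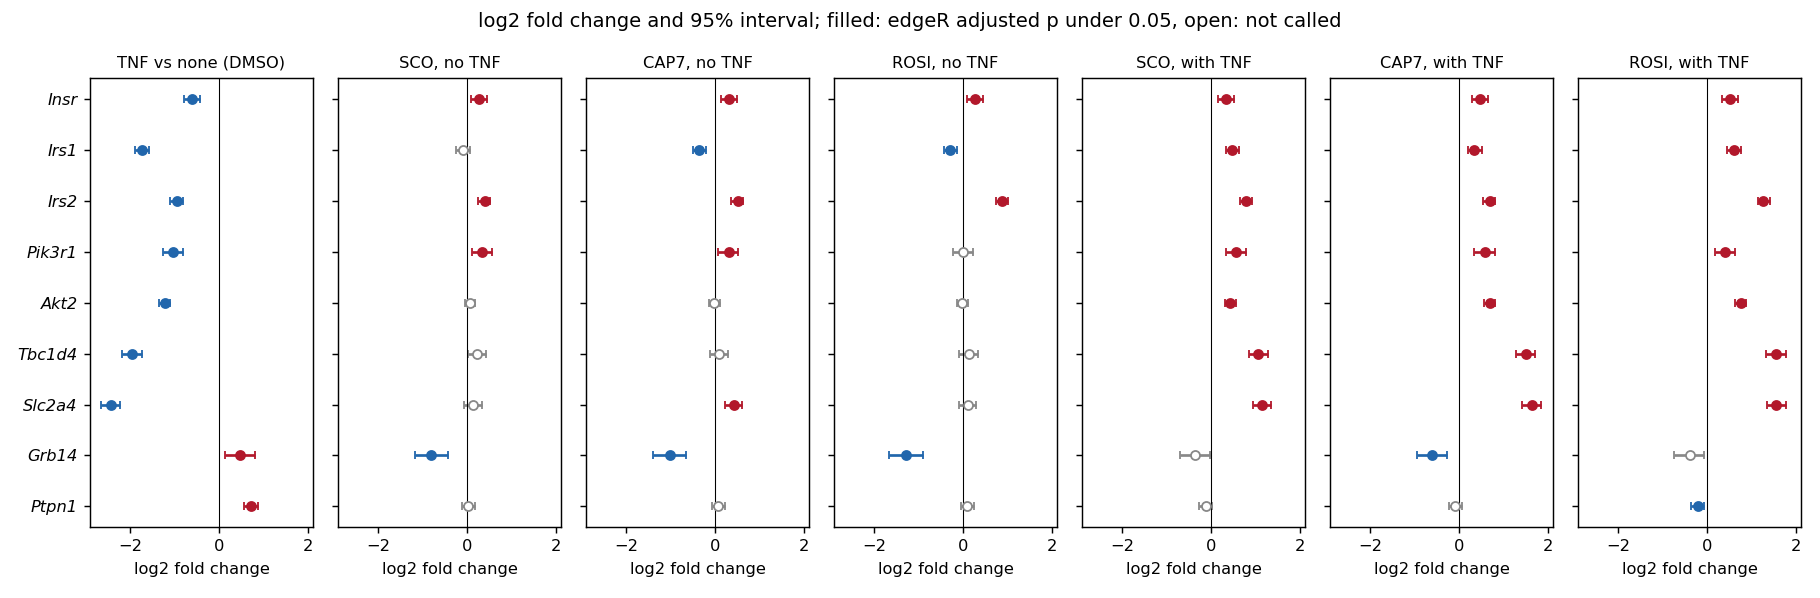
log2 fold change (horizontal axes) of the 9 genes with 95% intervals in 7 comparisons; filled points have an edgeR adjusted p under 0.05, open points do not. Slc2a4 is at -2.44 for TNF and at 1.13, 1.63 and 1.55 for SCO, CAP7 and ROSI with TNF, and Grb14 is the lowest point for each compound without TNF.

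Whether a compound acted differently with TNF present was tested as an interaction, the log2 change with the compound under TNF minus that without TNF. It was called for 5 of 9 members with SCO, where 4.64% of all genes were called, for 4 with CAP7 (16.2%) and for 7 with ROSI (14.6%). Slc2a4 had interactions of 1.01 ± 0.14, 1.21 ± 0.139 and 1.45 ± 0.139 with SCO, CAP7 and ROSI, and Tbc1d4 of 0.84, 1.41 and 1.43. Akt2 (0.37, 0.70 and 0.78) and Irs1 (0.57, 0.70 and 0.88) were called with each compound too. Irs2 was called with SCO and ROSI, at 0.39 each, and was 0.18 with CAP7 (adjusted p = 0.229). Insr and Pik3r1 were not called with any compound, with interactions of 0.06, 0.16 and 0.26 and of 0.22, 0.27 and 0.41. So for Slc2a4, Tbc1d4, Akt2 and Irs1 the change with each compound was more positive under TNF than without it. Irs1 went from falls with CAP7 and ROSI, and no call with SCO, to rises under TNF, and Akt2 was not called without TNF. For Insr and Pik3r1 the difference did not pass the test. The Pik3r1 interaction with ROSI was called without the first library of ROSI with TNF (0.53, adjusted p = 0.0118), without the third ROSI library without TNF (0.51, adjusted p = 0.0224) and without the low-count filter (0.40, adjusted p = 0.01). The Grb14 interaction with CAP7, 0.41 and not called, was called without the first CAP7 library without TNF (0.67, adjusted p = 0.0455). Grb14 had an interaction with ROSI of 0.88 ± 0.249 (adjusted p = 0.0116), its fall being smaller under TNF, and Ptpn1 one of -0.31 ± 0.103 (adjusted p = 0.0352). The Ptpn1 interaction was lost on leaving out any of 9 of the 16 libraries and without the filter on low counts, where it was -0.32 (adjusted p = 0.0852).

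Set against untreated DMSO libraries, no compound brought the whole path back. Slc2a4 with TNF stood at 18.4% of its DMSO level, and at 40.4%, 56.8% and 53.9% with SCO, CAP7 and ROSI. Irs1 stood at 30.1% with TNF alone and at 41.7%, 38.2% and 45.3% with the compounds. Tbc1d4 went from 25.6% to 53.6%, 72.2% and 74.6%, and Akt2 from 42.8% to 57.5%, 68.5% and 72.3%. Both were still called below DMSO with every compound, as were Slc2a4, Irs1 and Pik3r1 (64.1% to 72.2%). Insr reached 82%, 90.7% and 93.9%, and with CAP7 and ROSI it was not called apart from DMSO (log2 -0.14 and -0.09, intervals -0.32 to 0.04 and -0.27 to 0.09). With library size alone both were called lower, at -0.23. Of the members that fell with TNF, only Irs2 with ROSI was called above DMSO. ROSI without TNF held Irs2 at 119 ± 10.7 CPM, 183% of DMSO, and TNF lowered it from there. With TNF it held 82.7, 81.8, 80.3 and 76.2 CPM, above every untreated library, at 123% of DMSO (log2 0.30 ± 0.0671, adjusted p = 0.000272). With SCO it was at 88.3% (log2 -0.18, adjusted p = 0.0247), a call lost on leaving out DMSO library 1, 2 or 3 or SCO library 1, with adjusted p of 0.0526 to 0.0868, and without the low-count filter (0.15). With CAP7 it was at 82.1%, and its libraries, at 49.7 to 56.5 CPM, all lay below DMSO (log2 -0.29, adjusted p = 0.000702). Grb14 was not called apart from DMSO with any compound, at 107%, 89.8% and 105%, and Ptpn1 stayed high, at 150%, 153% and 140%. In all, 8, 7 and 7 members were called against untreated DMSO, with 47.5%, 40.6% and 46% of all genes.

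**Figure D4:**
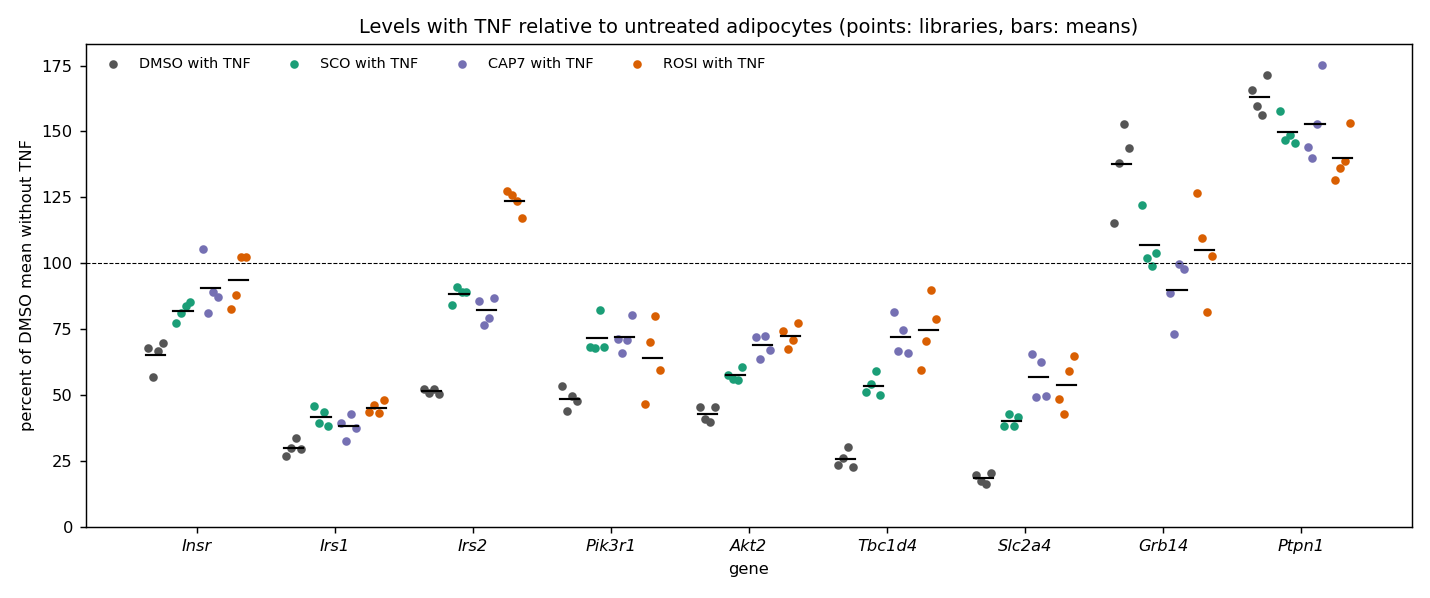
Level with TNF as a percent of the mean of untreated DMSO libraries (vertical axis, from 0; dashed line at 100) for each gene (horizontal axis); points are libraries and bars means of 4. Irs2 with ROSI stands at 123%, while Slc2a4 stays between 40.4% and 56.8% with the 3 compounds.

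Compared with each other under TNF, SCO gave lower levels than ROSI for 4 members (14.4% of all genes called, 8.64% lower): Slc2a4 (log2 -0.42, adjusted p = 0.00224), Tbc1d4 (-0.48), Akt2 (-0.33) and Irs2 (-0.48). SCO was also below CAP7 for 3 (9.16% called, 5.03% lower): Slc2a4 (-0.49, adjusted p = 0.000976), Tbc1d4 (-0.43) and Akt2 (-0.25). CAP7 and ROSI differed in 2 (8.57% called, 5.09% lower), both adaptors. Irs2 was 1.5-fold lower with CAP7 (log2 -0.59 ± 0.0669, adjusted p = 6.4e-08). Irs1 was lower by 0.25 (adjusted p = 0.0342), a call lost without CAP7 library 2 or 4 or ROSI library 2 or 4 (adjusted p 0.174, 0.0788, 0.0746 and 0.12), with library size alone (adjusted p = 0.0994), without the low-count filter (0.0524) and with only the groups compared (0.124). For Slc2a4, Tbc1d4 and Akt2 the intervals of CAP7 minus ROSI were -0.12 to 0.27, -0.26 to 0.15 and -0.20 to 0.05. Without TNF, Irs2 was lower with SCO and with CAP7 than with ROSI (log2 -0.48 and -0.37, adjusted p 1.5e-06 and 0.000101). Pik3r1 was higher with SCO than with ROSI (0.34, adjusted p = 0.0323), which was lost without any 1 of SCO libraries 1, 2 or 3 or ROSI libraries 2 or 4. Slc2a4 was higher with CAP7 than with ROSI (0.31, adjusted p = 0.0273), which was lost without CAP7 library 2 or 3 or ROSI library 2 or 3. That makes 2 members called in each of these pairs, where 14.7% (SCO and ROSI) and 11.7% (CAP7 and ROSI) of all genes were called. Between SCO and ROSI, Irs1 was called only with library size alone (0.27, adjusted p = 0.00789) and without the third ROSI library (0.25, adjusted p = 0.0271). Grb14 was called there only with library size alone (0.55, adjusted p = 0.0459) and without the first ROSI library (0.69, adjusted p = 0.0215). Pik3r1 between CAP7 and ROSI (0.30, adjusted p = 0.0719) was called without the third ROSI library (0.0152), with library size alone (0.0426), limma-voom (0.0444), the replicate block (0.0423) and only the groups compared (0.0432), and without the low-count filter (0.00447). Between SCO and CAP7, Irs1 alone was called (0.26, adjusted p = 0.0256, 6.04% of all genes), and not on leaving out SCO library 1 or 3 or CAP7 library 1, 3 or 4. The doses are not known to match, so these are differences between the groups as treated.

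A list of 90 further genes of the pathway, 86 of them tested, was set beside the members. It was chosen with earlier results of these data known, so its shares of calls may partly follow from that choice. With TNF, 41 of the 86 fell and 24 rose, with a median of -0.23, where 27.5% of all genes fell and 26.7% rose. The downstream outputs fell without exception among the calls, 8 of 12 lower and none higher. Pde3b, the phosphodiesterase through which insulin restrains lipolysis, went from 188 ± 2.77 to 31.7 ± 1.35 CPM, 5.94-fold lower, and Eif4ebp1, a regulator of translation, and Hk2, a hexokinase, fell by 1.52 and 0.75 on the log2 scale. Of 10 factors that act on the Slc2a4 gene, 7 fell and 1 rose. Cebpa went from 341 ± 12.7 to 49.1 ± 2.77 CPM, Klf15 from 55.4 ± 4.51 to 9.22 ± 1.6 and Pparg, the target of ROSI, from 572 ± 26 to 214 ± 4.49. The 16 inhibitors were mixed, with 7 higher and 5 lower. Socs3, which blocks the receptor and IRS proteins, rose from 21.6 ± 2.71 to 66.9 ± 1.33 CPM, Pid1 by 1.72 and Ptpn2, a phosphatase related to Ptpn1, by 0.99 on the log2 scale. Among 25 genes of GLUT4 vesicles and their traffic, 11 rose and 9 fell. The 3 with the lowest p all fell: Sort1 (sortilin) by 1.85, Trarg1, a vesicle protein that travels with GLUT4, by 1.75 and Ralgapa2 by 1.95. Of 10 receptor-proximal adaptors, 6 fell and 2 rose, with Cav1 (caveolin) and Sh2b2 at -1.40 and -0.97. Of 13 PI3K and AKT kinase genes, 6 fell and 3 rose. Pdpk1 and Pik3r2 fell by 0.64 and 0.66.

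Under TNF, SCO raised 21 and lowered 9 of these 86 genes, CAP7 raised 24 and lowered 17, and ROSI raised 26 and lowered 18, with medians of 0.06, 0.02 and -0.03. With library size alone these were 17 and 15, 17 and 28, and 18 and 37, so for CAP7 and ROSI the balance turned to more lower than higher. The shares called, 30, 41 and 44 of 86, stand above the 21.3%, 32.2% and 35.9% of all genes, and no test of that gap was made. Because of how the list was chosen, the gap cannot be read as enrichment of the pathway. Trarg1 rose from 58 ± 7.12 CPM to 164 ± 13.7 with SCO, 206 ± 15.2 with CAP7 and 263 ± 7.29 with ROSI (SD, n = 4 each). Cebpa rose by 1.53, 1.82 and 2.27 and Pde3b by 1.05, 1.57 and 1.70 on the log2 scale. Sort1 rose by 0.97, 1.32 and 1.54. Socs3 fell by 0.65, 0.71 and 0.58. Pparg itself stood apart: it rose with CAP7 by 0.29 and was not called with SCO or ROSI (-0.05 and -0.14).

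Without TNF, 21, 26 and 25 of the 86 rose and 9, 15 and 24 fell with SCO, CAP7 and ROSI. Over all genes, 10.3%, 15.2% and 18.4% rose and 8.99%, 15% and 19% fell. With library size alone these were 14, 17 and 17 higher and 11, 22 and 34 lower. Trarg1 rose from 195 ± 11 CPM to 302 ± 21.2, 351 ± 27.2 and 353 ± 28.1 (SD, n = 4 each). Sh2b2, an adaptor on the receptor, rose with SCO, CAP7 and ROSI by 0.37, 0.68 and 0.48. Pparg fell with SCO by 0.50, with CAP7 by 0.49 and with ROSI by 1.13, from 572 to 405, 406 and 262 CPM. So Trarg1 was raised by each compound with and without TNF.

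**Figure D5:**
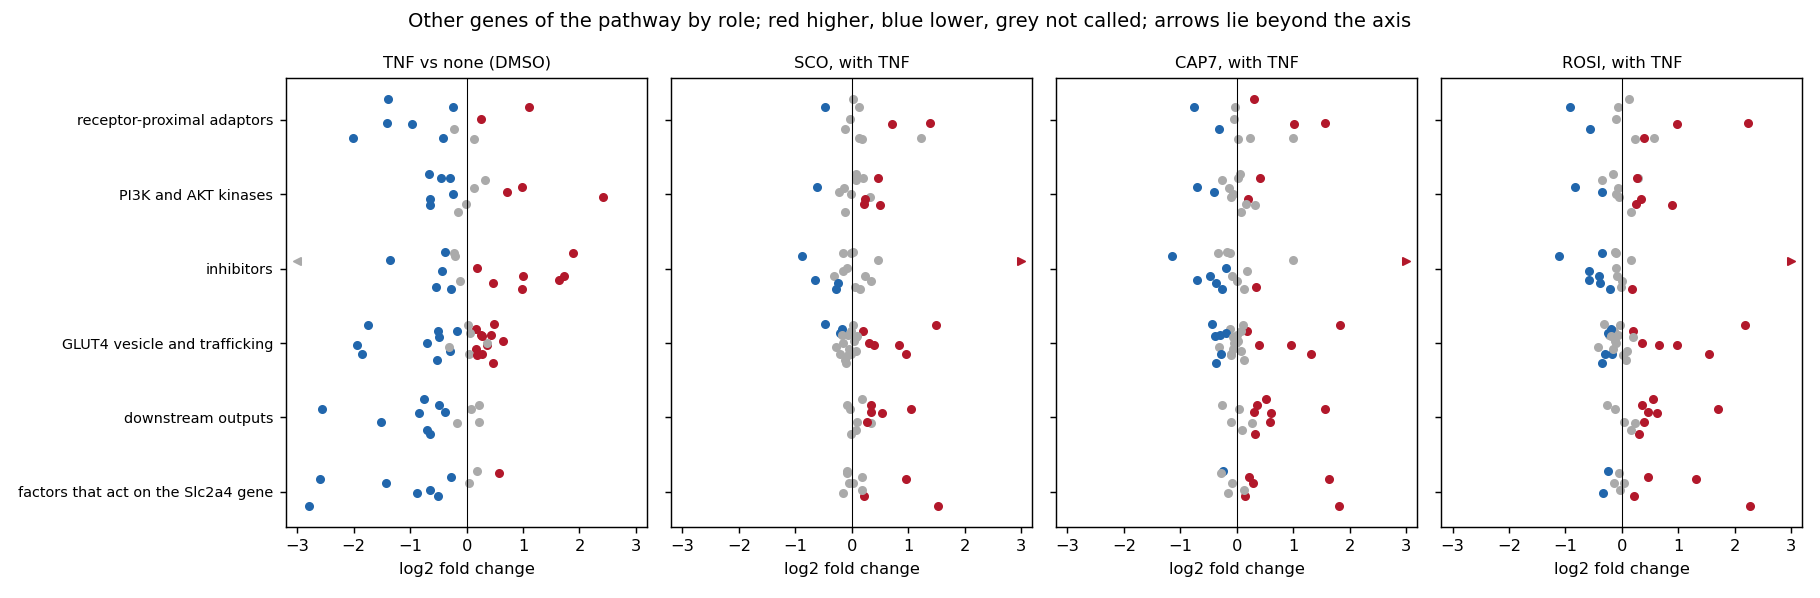
log2 fold change (horizontal axes) of the 86 tested pathway genes beyond the members, by role (vertical axis, points spread within a role for clarity); red is called higher, blue called lower, grey not called, and an arrow lies beyond the axis. All 8 called downstream outputs are lower with TNF, and none is called lower with a compound under TNF.

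The other members followed Slc2a4 across the groups to different degrees. Over the 8 group means of log2 CPM, Pearson's r with Slc2a4 was 0.98 for Tbc1d4 and Akt2, 0.97 for Insr, 0.95 for Pik3r1, 0.91 for Irs1 and 0.86 for Irs2, and -0.82 for Grb14 and -0.91 for Ptpn1. These points share libraries and the same split by TNF. Of 14427 other tested genes, 505 had r above 0.95, so such a value was not particular to the members. Among the 5 genes most like Slc2a4 were Gm2415 (r = 0.997), Col15a1 (0.995), and Cdadc1 and Pgrmc2 (0.994 each). Gm2415 had low and uneven levels, at 2.09 ± 0.654 CPM with TNF alone and 7.91 ± 2.59 with SCO without TNF. Col15a1, for example, had 165 ± 3.69 CPM in DMSO and 75 ± 5.14 with TNF, and 117 ± 12.8, 139 ± 18.6 and 134 ± 15.9 with SCO, CAP7 and ROSI added (SD, n = 4 each). Cdadc1 had a narrower range of group means, from 18 CPM with TNF alone to 28.1 with CAP7 without TNF.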

How the data were processed

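The data are 32 columns of gene-level counts as deposited, keyed by Ensembl ID and made with a 3' mRNA kit, per the labels' protocols. According to the submitters' processing notes, build GRCm39 was used, with STAR 2.7.11b and HTSeq 2.0.5, besides cutadapt 4.9 and limma 3.60.6 under R 4.4.1. The sources used here do not state the handling of strand or multi-mapped reads, so overlapping genes are uncertain. No coordinates of that build are used, and promoter windows are RefSeq's for GRCm38.p6.

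The fit used edgeR 4.0.16 (R 4.3.3) on these counts: filterByExpr by group, TMM factors, quasi-likelihood test, 1 mean per group, 24 residual degrees of freedom, Benjamini-Hochberg adjustment over 14428 genes, calls under 0.05. The method was tested on simulated data for SCO with TNF against TNF alone only. Those counts were drawn with the dispersions of this same fit, so its assumptions were not tested. Alternatives were RLE factors, library size alone, no low-count filter, limma-voom (limma 3.58.1), DESeq2 1.42.0, a filter at 5 CPM in 4 libraries, only the groups compared, a replicate block, and leaving out each library. Within groups no 2 libraries agreed within sampling noise (chi-square per degree of freedom at least 6.8).

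The 9 genes, the pathway list and the marker lists were chosen with earlier results of these data known. Pathway genes are named by rule: the 3 with the lowest p per role for TNF, the 3 with the lowest p in each comparison of a compound with DMSO, and the 5 genes most correlated with Slc2a4. Values of those genes in other comparisons follow from that choice. Some genes that the rule names are not reported here.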

Additional observations from a re-analysis of the deposited data

Results flagged for a closer look

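Of 72 groups of 4 libraries checked (9 genes in 8 groups), 2 held a library far from the other 3, where chance gives about 1 in 20. Pik3r1 in SCO with TNF had 77.5 CPM in library 3 and 63.8 to 64.3 in the others. Grb14 in SCO without TNF had 4.42 CPM in library 3 and 5.11 to 5.23 in the others.

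The effect of a compound differed between cells with and without TNF, by a test of the interaction, in 16 cases. With SCO the log2 interactions were 0.57 for Irs1, 0.39 for Irs2, 0.37 for Akt2, 0.84 for Tbc1d4 and 1.01 for Slc2a4. With CAP7 they were 0.70 for Irs1, 0.70 for Akt2, 1.41 for Tbc1d4 and 1.21 for Slc2a4. With ROSI they were 0.88 for Irs1, 0.39 for Irs2, 0.78 for Akt2, 1.43 for Tbc1d4, 1.45 for Slc2a4, 0.88 for Grb14 and -0.31 for Ptpn1. All 16 share the DMSO libraries with and without TNF. They were found among the 9 members, each tested with each compound. Of all tested genes, 4.64%, 16.2% and 14.6% were called for the interaction with SCO, CAP7 and ROSI. No test of the members as a set was made.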

How the results depend on the processing

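No change of direction was seen among called values under any alternative run. Of 198 tests of a member, RLE factors kept 198 on the same side of the threshold, the stricter filter 197, DESeq2 196, the replicate block 195, limma-voom 194, only the groups compared 192, no filter 190 and library size alone 182, and leaving out a library kept 1736 of 1800. Only the larger relative moves in the number of members called are listed next, and smaller ones occurred too. With library size alone the number moved from 4 to 2 for SCO against DMSO without TNF. It moved from 2 to 4 for SCO against ROSI without TNF, and from 2 to 1 for CAP7 against ROSI with TNF. Without the filter and with only the groups compared it moved from 2 to 1 for the last pair. For SCO against CAP7 without TNF it moved from 1 to 2 with no filter, DESeq2, limma-voom, only the groups compared and the replicate block. Among the smaller moves, library size alone ended the calls of Insr and Pik3r1 for CAP7 against DMSO without TNF. It added Ptpn1 for SCO and for CAP7 against DMSO with TNF. In each of these cases the cause was not tested. Replicate numbers did not pair libraries: same-numbered deviations correlated between -0.11 and 0.11 over 76 pairs, with 2 over 0.1. The replicate block added 3 calls: Grb14 with ROSI under TNF (-0.42, adjusted p = 0.0378), Pik3r1 between CAP7 and ROSI (0.31, adjusted p = 0.0423) and Slc2a4 between SCO and CAP7 (-0.29, adjusted p = 0.0472), both without TNF. Leaving out 1 library gave 8 to 9 members for TNF in DMSO, 2 to 4 for SCO, 5 to 6 for CAP7 and 3 to 4 for ROSI without TNF, and 7 to 9 for ROSI with TNF. It gave 1 to 3 for SCO against ROSI, 1 to 2 for CAP7 against ROSI and 0 to 1 for SCO against CAP7 without TNF, and 1 to 2 for CAP7 against ROSI with TNF. For SCO with TNF against untreated DMSO it gave 7 to 8, and for the interactions 4 to 5 with CAP7 and 6 to 7 with ROSI. Depth limits Grb14 most, with as few as 46 counts in a library.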

Other observations

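The ratio of Slc2a4 to Insr counts within a library, compared across groups only, separated the TNF groups from the others. It lay between 3.53 and 4.12 in DMSO, 3.35 and 3.72 in SCO, 3.83 and 4.59 in CAP7 and 3.11 and 4.13 in ROSI. With TNF it lay between 0.944 and 1.18 in DMSO, 1.79 and 2.05 in SCO, 2.22 and 2.75 in CAP7 and 1.89 and 2.47 in ROSI. The ranges with and without TNF did not overlap, and each compound with TNF lay above TNF alone.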
